A study of Mus musculus with 6 samples.

Results

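The genes of the cytosolic ribosome's proteins were followed in sorted mesenchymal progenitor cells of mouse bone marrow. A gene was taken when its symbol began with Rpl or Rps and a digit, or was Rplp0, Rplp1, Rplp2 or Rpsa. Symbols marked as pseudogenes by "-ps", the Rps6k kinases, Rps19bp1 and Rpl7l1 were left out. This gave 88 of the 25491 genes in the table, spread over 19 chromosomes. They are 43 proteins of the large subunit, 31 of the small subunit, the 3 proteins of the P stalk, and 11 paralogs or retrocopies, 5 of which are annotated as pseudogenes (Rpl32l, Rpl37rt, Rps3a2, Rps3a3 and Rps4l). Ribosomal genes with other symbols, such as Fau and the scaffold Rack1, are not members.

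A cytosolic ribosome is built from ribosomal RNA and a set of ribosomal proteins, most of them present once per ribosome. The large subunit joins amino acids, the small subunit reads the mRNA, and the P stalk recruits the translation factors. Cells hold these mRNAs in step mainly through their start: most begin with a cytosine followed by a run of pyrimidines, the 5′ terminal oligopyrimidine (TOP) tract, through which mTOR and LARP1 control their translation. Free ribosomal proteins such as RPL5 and RPL11 bind MDM2 and stabilise p53, and loss of a copy of several of these genes causes Diamond-Blackfan anaemia, a failure of red cell production in the marrow.

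Both groups were C57BL/6J mice of 14 weeks, taken 6 weeks after a sublethal 7 Gy irradiation that controls and mutants shared. The genotypes were wild type and Lama4-/-, the latter without the laminin alpha 4 chain of basement membranes, with 3 libraries each. Cells were sorted from marrow as CD45-TER119-CD31-CD44-CD51+SCA1-, and their RNA was amplified as full-length cDNA before sequencing. The labels do not say whether each library is 1 mouse, nor give the allele's construction, so a p-value here reflects the variation among these libraries, part or all of which may be technical. Lama4 had 607, 236 and 438 counts in the wild type libraries and 0 in each Lama4-/- library. Library totals ran from 6263830 counts (wild type replicate 2) to 15663957 (Lama4-/- replicate 1). Of the genes of the labelled cell type, the mesenchymal list (11 genes, among them Cxcl12, Lepr and Col1a1) took 6.08% to 14.6% of a library's counts. Red cell markers (10 genes) took 0.0294% to 0.173% in wild type and 0.147% to 0.387% in Lama4-/-, and neutrophil and monocyte markers (14 genes) 0.00426% to 0.0143% and 0.0122% to 0.0844%. Endothelial markers (7 genes) took at most 0.00091%.

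The TOP tract is the sequence feature that ribosomal protein genes are known to share, so the start sites are shown first. The RefSeq promoter table (GRCm38.p6) held 65 of the 88 genes. A tract was counted on the gene's own strand when a C followed by at least 4 bases, each C or T, lay within 5 bases of the annotated start. It was found in 31 of the 65 (47.7%), and in 3272 of the 13922 genes of the count table with a promoter (23.5%). Each line below gives 12 bases before and 14 from the annotated start, with the tract in capitals. The first 7 lines are members with a tract. The last 4 are members on which later results turn and which have no tract within 5 bases of the annotated start.
Rps6: cggaagtcgggcCTCTTTTTCgtgac
Rpl35: ccccgccctttcCTCTTTCTCTCgaa
Rpl35a: gggcttgccttcCTCTTTCCgccatc
Rps18: gtcacttccgctCTCTCTTCCacagg
Rps10: ccgcgcacgcccCTTCCTTTCCagcc
Rplp2: gtcagcgtcttcCTTTCgccgccgga
Rps2: cagtcgagatctcgcgCTTCTTggag
Rplp0: ttcgggtttcgaggaccgcctggttc
Rpl4: cttttcctgtgggagcagccgggtag
Rps3: gcaagggtcgccgcgctgcgcggcgt
Rpsa: ggttatttaaggacgtcatttccggc
In GRCm38.p6 the Rps6 window is chr4:86857354-86857379 on the minus strand and the Rplp0 window is chr5:115559455-115559480 on the plus strand. In Rps2 the tract begins 4 bases after the annotated start and in the other 6 at the start itself. A line without capitals says only that no tract lies beside that annotated start. The Rpl4 line does open with a C and a run of pyrimidines, 12 bases before the annotated start. That base, 64173375 on chromosome 9, is where GENCODE M21 begins the gene. Among the members tested for a genotype difference, the 31 with a tract had a median log2 fold change of 0.29. The 33 without one beside the annotated start, Rpl4 among them, had a median of 0.27.

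A second shared feature bears on every value that follows. Ribosomal protein genes have many processed copies in the genome, and a 75-base read that also lies in a copy cannot be placed by its sequence alone. Each 75-base window of a member's transcript (GENCODE M21, GRCm38) was searched for in the transcripts of all other annotated genes. In 45 of the 88 members fewer than 50% of windows were found in no other gene, and Rpl3l, Rpl39l and Rps3 were among those wholly unique. Rps27 had 1.48% unique windows, Rpl5 7.51%, Rpl10 8.14% and Rps10 9.91%. Rps3 had 100%, Rpl8 95.1%, Rpl4 91.5% and Rplp0 72.6%. The coding windows below are those found in the most other genes, 18 for Rps12 (coding bases 312 to 386) and 10 for Rpl23a (coding bases 13 to 87).
Rps12: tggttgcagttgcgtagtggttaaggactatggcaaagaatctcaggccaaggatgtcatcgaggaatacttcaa
Rpl23a: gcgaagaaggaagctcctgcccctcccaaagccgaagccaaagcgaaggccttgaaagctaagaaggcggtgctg
Retrocopies within the 88 genes differ from their parents by even less. The coding sequences of Rpl37 and its retrocopy Rpl37rt share 290 of 291 bases, and the single difference, in capitals, is G249A (the base of Rpl37 first, counted from 1 at the first base of its start codon).
Rpl37: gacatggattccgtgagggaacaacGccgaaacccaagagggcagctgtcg
Rpl37rt: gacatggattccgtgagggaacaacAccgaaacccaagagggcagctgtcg
Rps27 and Rps27rt share 252 of 252 coding bases and Rps3a1 and Rps3a2 share 788 of 792. The older paralogs are further apart, at 87.7% for Rpl36a and Rpl36al, 85.0% for Rpl39 and Rpl39l, 80.0% for Rps4x and Rps4l, 76.2% for Rps27 and Rps27l, 74.8% for Rpl3 and Rpl3l, and 73.5% for Rpl22 and Rpl22l1. How reads that fit several places were counted is not given in the sources used here. A value of Rps27, Rps27rt, Rps3a1, Rps3a2, Rpl37 or Rpl37rt is therefore uncertain as a value of that gene alone. The same limit applies to other members with few unique windows. Among them are Rpl5, Rpl10 and Rps10 above, Rps6 (15.9%), Rpl3 (16.8%), Rpl31 (26.4%) and Rps7 (31.1%). The library kit does not mark strand, and 23 members share exonic bases with another annotated gene, 19 of them with a gene on the opposite strand. Rpl5 shares 953 such bases with Fam69a, Rpl23a 506 with Tlcd1 and Rpl31 420 with Tbc1d8. On the same strand Rpl24 shares 484 with Gm28037 and Rps10 475 with RPS10-NUDT3. The window search covered both strands of every other annotated gene. Overlaps at a member's own locus can therefore lower its percentage of unique windows, as copies elsewhere do.

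Levels are given as CPM, a gene's count relative to the library total after TMM scaling (edgeR's correction for composition), and between genes as CPM per kilobase of transcript. The mean level over the 6 libraries ran from 0.407 CPM per kb for the pseudogene Rps3a3 to 383 for Rplp0, with a median of 30.06. Among the highest were Rplp0, the scaffold of the P stalk, Rpl4, which lines the tunnel where the new protein leaves (346 CPM per kb), Rps14 (328), Rpl8 (321) and Rplp1 (287). The lowest of the canonical genes were Rpl23a (1.41), Rpl24 (1.84), Rpl5 (2.13), Rpl28 (2.604) and Rpl17 (2.75). The 7 most counted genes, Rpl4, Rplp0 and Rps3 among them, held 46.9% to 51.9% of all member counts in a library.

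The counted level went with how unique a transcript is. The median was 13.76 CPM per kb for the 21 members with under 25% unique windows, 36.65 for the 24 from 25% to under 50%, 44.81 for the 26 from 50% to under 75%, and 104.1 for the 17 from 75% up. Across the 88 genes, which share the 6 libraries, Spearman's rho of the percentage with CPM per kb was 0.47, a description and not a test. Single members depart from it: Rps18 reached 79.1 CPM per kb with 22.2% unique windows, while Rpl39l had 21.03 at 100%. The log2 fold change between genotypes had a rho of -0.122 with the percentage over the 86 tested members. The order of the 88 levels was nearly the same in every library, with a rho of 0.964 to 0.979 within a genotype and 0.955 to 0.972 across genotypes.

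**Figure D1:**
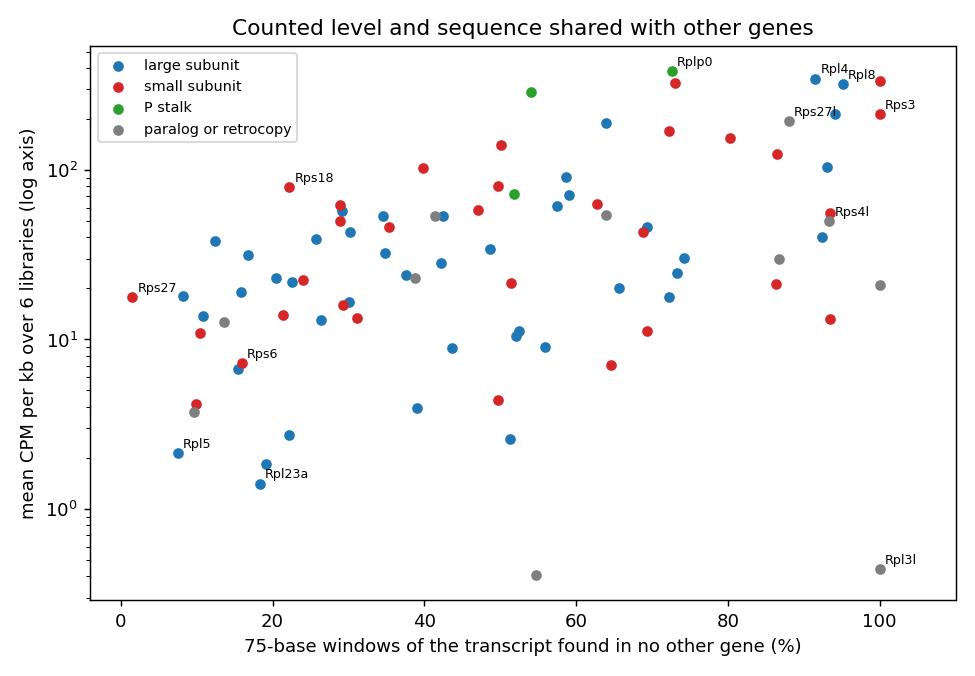
Mean CPM per kb of transcript over the 6 libraries (log axis) against the percentage of 75-base windows found in no other gene, for the 88 ribosomal protein genes coloured by class. Rps27, at 1.48%, lies at the left edge, and Rps3, at 100%, lies at the upper right.

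No ribosomal protein gene passed the test between genotypes. The 88 genes took 0.529%, 0.254% and 0.431% of all counts in wild type and 0.598%, 0.471% and 0.535% in Lama4-/-, with 95% Wilson intervals of at most ±0.0039 percentage points that cover counting error only. The mean share was 0.405% ± 0.139 in wild type and 0.534% ± 0.0636 in Lama4-/- (SD, n = 3 each), a difference of 0.130 percentage points that is smaller than the wild type SD. The ranges overlap, because wild type replicate 1 lies above Lama4-/- replicate 2, and wild type replicate 2 lies below all other libraries. In bulk samples fewer cells of a type and less RNA per cell cannot be told apart. Of the 86 genes that passed the filter on low counts (Rpl3l and Rps3a3 did not), 0 had an adjusted p under 0.05 in edgeR's quasi-likelihood test, against 1 gene (0.00691%) of the 14465 tested. DESeq2 put 1 member under that threshold, Rplp0, where 4.39% of all genes with an adjusted p were under it, and limma voom 0. The smallest edgeR adjusted p of a member was 0.258.

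A positive log2 fold change, higher in Lama4-/-, was found for 71 of the 86 (82.6%), against 48% of all tested genes. The members' median was 0.27, that of all tested genes -0.04. The members' median stayed positive with DESeq2 size factors (0.28), upper-quartile scaling (0.37) and limma voom (0.20), and it was -0.0042 with the length trend described below removed. Single values ran from -0.87 (Rpl35a) to 1.10 (Rpl24). The spread among members, an SD of 0.39, was about that of the error of a single member, whose median SE was 0.40. A deviation of a library that all members share enters each SE but not that spread. The likeness of these values therefore does not say whether members differ from each other. At an unadjusted p under 0.05 there were 3 members higher in Lama4-/- (3.49%) and 0 lower, while 4.45% of all tested genes were higher and 8.34% lower by that measure. The genotypes did not overlap, with all Lama4-/- libraries above all wild type libraries, in 9 members (10.5%), namely Rpl3, Rpl4, Rpl5, Rpl19, Rpl31, Rplp0, Rps4l, Rps6 and Rps7. The same held for 10.3% of all tested genes, so the members' share was at the background. No member had all Lama4-/- libraries below all wild type libraries, against 12% of all genes.

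**Figure D2:**
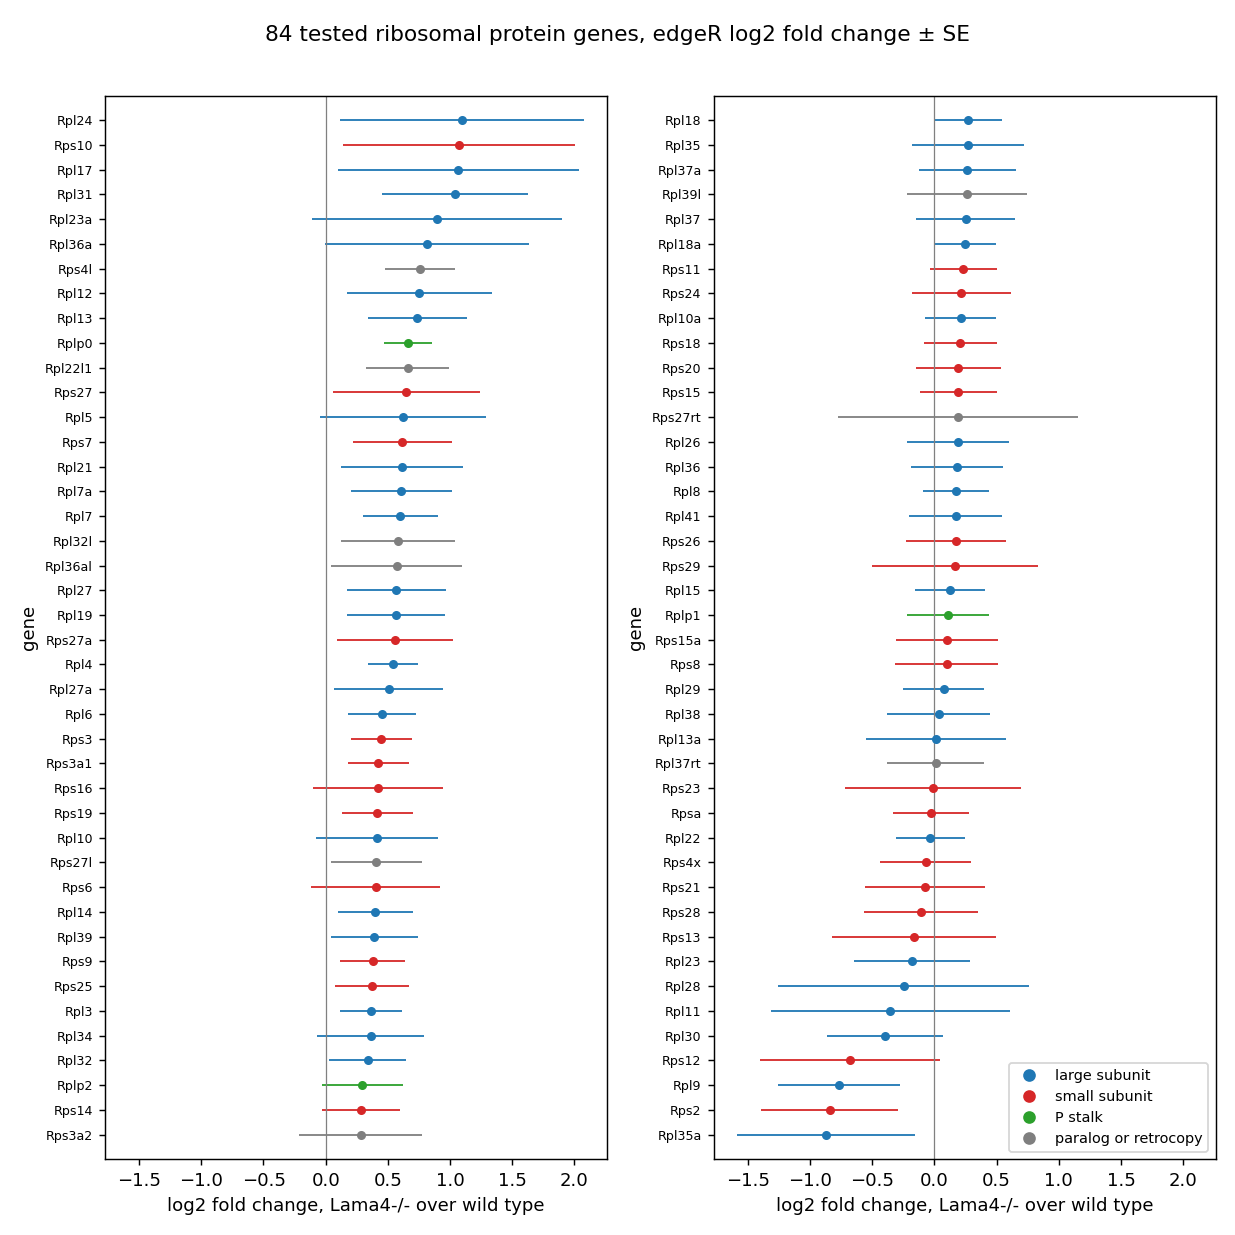
The edgeR log2 fold change of Lama4-/- over wild type for 84 of the 86 tested ribosomal protein genes, with its SE as a horizontal bar and coloured by class, sorted across both panels. Most points lie to the right of 0, from Rpl35a at -0.87 to Rpl24 at 1.10, and 0 passed the adjusted test.

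Most of this shift rested on wild type replicate 2. In that library, the shallowest, the median member lay 0.73 on the log2 scale below its own mean over the 6 libraries. In the other libraries that median lay between -0.0054 and 0.29, and the median of all tested genes lay between -0.02 and 0.09 in each. Without wild type replicate 2 the median log2 fold change was 0.058 and 48 of 87 members were positive (55.2%), against -0.02 and 48.7% for all genes. Leaving out wild type replicate 1 gave 0.52 and 80 of 87, and leaving out wild type replicate 3 gave 0.42 and 75 of 87. Without Lama4-/- replicates 1, 2 or 3 the medians were 0.23, 0.38 and 0.27. The count of members whose genotypes did not overlap was 35 of 87 without wild type replicate 1 (40.2%, against 15.6% of all genes) and 34 of 87 without Lama4-/- replicate 2 (39.1%, against 15.2%). It was 9 of 87 without wild type replicate 2, where 15.4% of all genes did not overlap, and 14 of 87 without wild type replicate 3, against 12.9%.

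**Figure D3:**
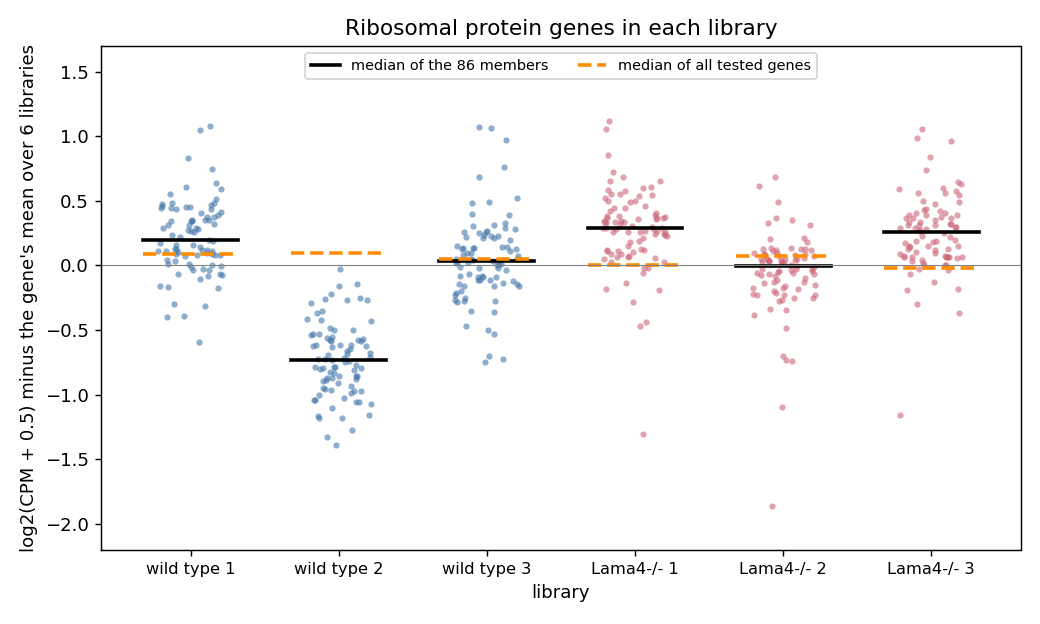
Each point is 1 of the 86 tested ribosomal protein genes, as log2(CPM + 0.5) minus that gene's mean over the 6 libraries, for each library. The solid bar is the median of the members and the dashed bar that of all tested genes. The bars part most in wild type replicate 2, where the members' median is -0.73 and that of all genes 0.09.

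The members' difference also changed when a trend with transcript length was removed. The transcripts used for the members' levels per kb had a median of 681.5 bases. Over the 86 tested members Spearman's rho of that length with the log2 fold change was 0.145, a description and not a test. In these libraries log2 CPM follows transcript length differently from one library to the next. A curve of each library's deviation on the length of each gene's longest transcript was removed in a further fit. The members' median log2 fold change was then -0.0042, 43 of 86 were positive (50%, against 51.4% of all genes), 0 had an unadjusted p under 0.05 (4.95% of all genes were higher and 3.16% lower), and 2 had genotypes that did not overlap (2.33%, against 9.01% of all genes). Other values also differ between the libraries. Mitochondrial genes took 1.80%, 0.427% and 1.71% of counts in wild type and 0.917%, 0.447% and 0.848% in Lama4-/-, lowest in the libraries of replicate 2. Genes of the mesenchymal list and of the sort gate had mostly negative log2 fold changes. In the mesenchymal list 9 of 11 genes were negative, with a median log2 fold change of -0.93, 6 were lower at an unadjusted p under 0.05 (8.34% of all genes), and 6 had all Lama4-/- libraries below all wild type libraries (12% of all genes). None of the 11 passed the adjusted threshold in edgeR and 5 did in DESeq2, and the median was -0.25 with the length trend removed. As a summed share of counts the list overlapped between genotypes, at 9.28% to 11.8% in wild type and 6.08% to 14.6% in Lama4-/-. The genes of the sort gate were negative in 5 of 5, with a median of -0.94 and 2 lower at an unadjusted p under 0.05. Of these genes only Itgav (CD51) was selected for. Ptprc (CD45), Pecam1 (CD31), Cd44 and Ly6a (SCA1) were selected against, so their values do not describe the sorted cells' own markers. Red cell markers were positive in 10 of 10, with a median of 1.15, and neutrophil and monocyte markers in 10 of 12, with a median of 2.24. The part of depth, RNA quality and these marker values in the members' shift was not tested. The labels name alternative sequencers without saying which library was run on which, so a sequencer batch could not be examined.

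**Figure D4:**
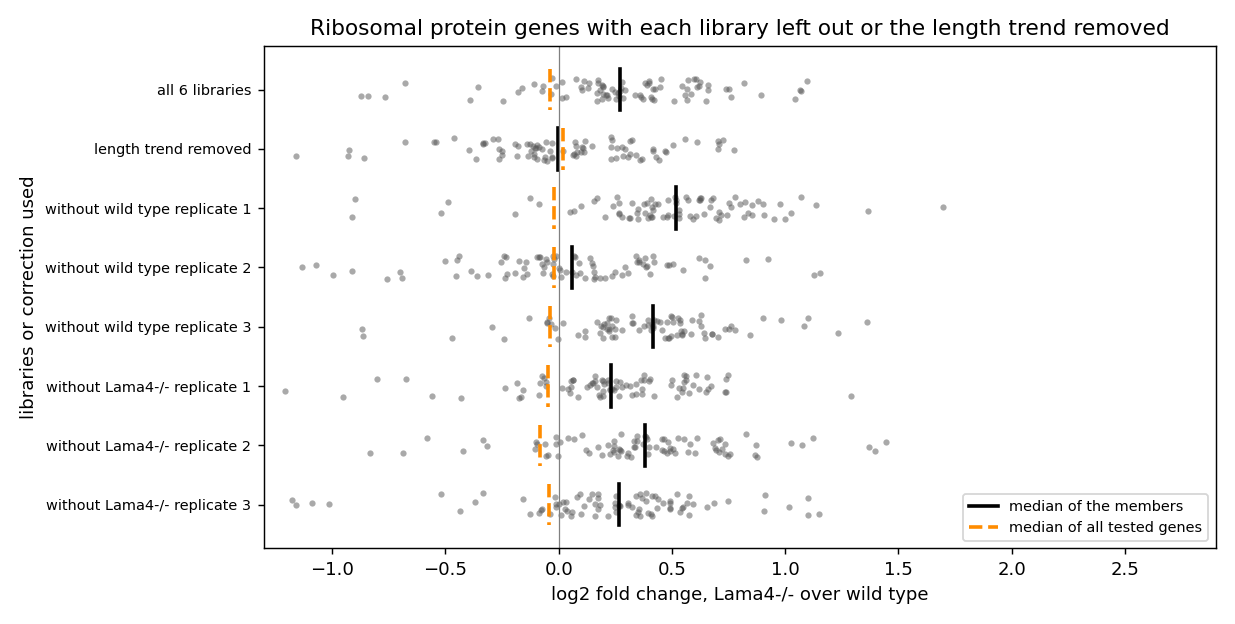
Log2 fold changes of the ribosomal protein genes (points) with all 6 libraries, with the length trend removed, and with each library left out in turn. The solid bar is the members' median and the dashed bar that of all tested genes. The medians lie closest together without wild type replicate 2 (0.058 and -0.02) and with the length trend removed (-0.0042 and 0.02).

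The P stalk is a flexible arm of RPLP0 and pairs of RPLP1 and RPLP2 that brings elongation factors to the ribosome. Rplp0 (ENSMUSG00000067274, chromosome 5, 115559467 to 115563727, plus strand, GRCm38) was the member with the smallest p. It measured 449, 337 and 423 CPM in the wild type libraries and 653, 548 and 712 CPM in the Lama4-/- libraries. Every Lama4-/- library was above every wild type library, and the means were 403 ± 58.7 CPM for wild type against 638 ± 83.2 CPM for Lama4-/- (SD, n = 3 each). Its edgeR log2 fold change was 0.66 (SE 0.19, unadjusted p = 0.0101, adjusted p = 0.258). DESeq2 gave it an adjusted p of 0.0499, and 0.0484 with the independent filtering set to the 0.05 threshold, where 4.64% of all genes with an adjusted p were under 0.05. In the authors' deposited table its adjusted p was 0.0389. It was the only member under 0.05 there, of 73 with an adjusted p, where 6.63% of all genes were under 0.05. With the length trend removed its log2 fold change was 0.36 (unadjusted p = 0.0682). The other stalk genes had smaller differences, which were not tested against that of Rplp0. Rplp1 had 186, 75.7 and 150.2 CPM in the wild type libraries and 170.04, 124 and 153 CPM in the Lama4-/- libraries, and Rplp2 had 28.9, 17.3 and 35.3 CPM in the wild type libraries and 38.1, 31.4 and 30.6 CPM in the Lama4-/- libraries. The log2 fold changes were 0.11 (SE 0.33, adjusted p = 0.925) for Rplp1 and 0.29 (SE 0.32, adjusted p = 0.7702) for Rplp2, with overlapping genotypes in both.

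Rpl4 and Rps4l were the other members with an unadjusted p under 0.05. Rpl4 (chromosome 9, 64173375 to 64178666, plus strand), a protein of the exit tunnel, measured 482, 337 and 481 CPM in the wild type libraries and 676, 568 and 649.7 CPM in the Lama4-/- libraries. Its genotypes did not overlap, and the log2 fold change was 0.54 (SE 0.20, unadjusted p = 0.0293, adjusted p = 0.332). Rps4l (chromosome 6, 148354656 to 148355598, plus strand), a copy of the X-linked Rps4x annotated as a pseudogene, measured 45.1, 29.1 and 30.9 CPM in the wild type libraries and 68.8, 63.3 and 46.1 CPM in the Lama4-/- libraries. Its genotypes did not overlap either, and the log2 fold change was 0.76 (SE 0.28, unadjusted p = 0.0278, adjusted p = 0.329). In 93.3% of its windows Rps4l is unique. The parent Rps4x measured 83.99, 28.9 and 59.9 CPM in the wild type libraries and 54.98, 53.8 and 56.3 CPM in the Lama4-/- libraries, with a log2 fold change of -0.071 (SE 0.37, adjusted p = 0.958). With the length trend removed the log2 fold change was 0.26 for Rpl4 and 0.43 for Rps4l.

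The next members by p in the higher direction had overlapping genotypes. Rpl7, a protein of the large subunit, measured 89.6, 42.6 and 64.3 CPM in the wild type libraries and 114, 81.2 and 103 CPM in the Lama4-/- libraries, a log2 fold change of 0.60 (SE 0.30, adjusted p = 0.462). Rpl22l1, the paralog of Rpl22, measured 26.8, 16.6 and 25.1 CPM in the wild type libraries and 42.01, 24.7 and 41.5 CPM in the Lama4-/- libraries, a log2 fold change of 0.66 (SE 0.33, adjusted p = 0.467). Rpl13 measured 18.1, 8.22 and 13.9 CPM in the wild type libraries and 27.4, 17.9 and 22.001 CPM in the Lama4-/- libraries, a log2 fold change of 0.74 (SE 0.40, adjusted p = 0.499). In all 3 genes wild type replicate 2 was the lowest library.

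Members with a negative log2 fold change numbered 15, and none reached an unadjusted p under 0.05 without a block. With the replicate number as a block, 1 member was lower at that threshold, Rps2 (log2 fold change -1.03, unadjusted p = 0.0277, adjusted p = 0.334 in edgeR), where 8.92% of all genes were lower, and 5 were higher, where 4.42% of all genes were. Rps2, at the entry of the mRNA channel, measured 88.8, 41.8 and 61.6 CPM in the wild type libraries and 52.1, 11.4 and 43.8 CPM in the Lama4-/- libraries. The low library was Lama4-/- replicate 2, and the log2 fold change was -0.84 (SE 0.55, adjusted p = 0.584). Rpl9 measured 12.9, 10.6 and 25.2 CPM in the wild type libraries and 8.403, 6.84 and 13.4 CPM in the Lama4-/- libraries, with the genotypes overlapping and wild type replicate 3 highest. Rpl35a, a Diamond-Blackfan gene, measured 5.31, 3.42 and 8.49 CPM in the wild type libraries and 2.88, 2.26 and 4.28 CPM in the Lama4-/- libraries. The log2 fold changes were -0.77 (SE 0.49, adjusted p = 0.578) for Rpl9 and -0.87 (SE 0.72, adjusted p = 0.679) for Rpl35a. Rps12 measured 10.8, 4.28 and 4.86 CPM in the wild type libraries and 5.58, 4.96 and 1.89 CPM in the Lama4-/- libraries, and Rpl30 26.3, 8.73 and 28.1 CPM in the wild type libraries and 17.05, 14.2 and 16.99 CPM in the Lama4-/- libraries. Their log2 fold changes were -0.68 and -0.39. Rpl23 measured 32.1, 9.76 and 18.4 CPM in the wild type libraries and 15.5, 15.7 and 22.2 CPM in the Lama4-/- libraries, with a log2 fold change of -0.18, and wild type replicate 1 was highest. Both Rps2, with windows in 50 other genes, and Rps12, with windows in 24, are among the members with many copies.

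**Figure D5:**
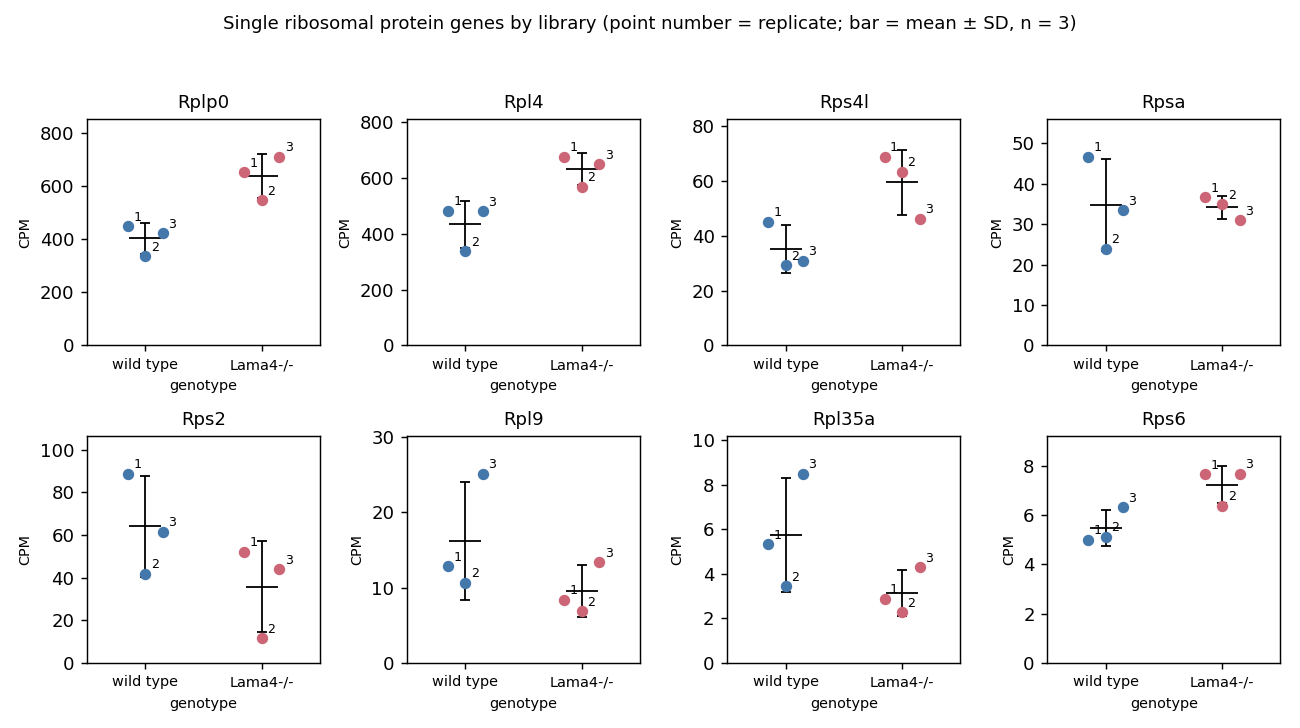
CPM of 8 ribosomal protein genes in each library, numbered by replicate, with the mean ± SD (n = 3). In Rplp0, Rpl4, Rps4l and Rps6 all Lama4-/- libraries lie above all wild type libraries, and in Rpsa, Rps2, Rpl9 and Rpl35a the genotypes overlap.

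Rpsa, of the small subunit, is also known as the laminin receptor, which makes it the member with the closest tie to a laminin mutant. Its transcript (chromosome 9, 120127689 to 120132369, plus strand) measured 46.7, 23.97 and 33.5 CPM in the wild type libraries and 36.6, 34.9 and 30.9 CPM in the Lama4-/- libraries. The wild type libraries spanned the Lama4-/- values, with means of 34.7 ± 11.4 CPM for wild type against 34.1 ± 2.91 CPM for Lama4-/- (SD, n = 3 each). The log2 fold change was -0.028 (SE 0.30, adjusted p = 0.97998). 51.5% of its windows are unique.

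Free RPL5, RPL11, RPL23 and RPL26 act on the MDM2 and p53 pathway. Rpl5 measured 4.49, 3.42 and 2.39 CPM in the wild type libraries and 4.501, 5.57 and 5.81 CPM in the Lama4-/- libraries, without overlap, and Rpl11 2.92, 1.71 and 6.48 CPM in the wild type libraries and 2.22, 1.05 and 5.45 CPM in the Lama4-/- libraries. Rpl26 measured 36.8, 12.7 and 29.8 CPM in the wild type libraries and 34.8, 25.05 and 30.9 CPM in the Lama4-/- libraries. Of these 4 genes 2 were positive and 0 had an unadjusted p under 0.05, and the median log2 fold change was 0.0056, or -0.32 without wild type replicate 2 and 0.43 without wild type replicate 1. Rpl5 and Rpl11 stood at only a few CPM, where their SEs were 0.67 and 0.96 on the log2 scale. Of 12 p53 targets and regulators, among them Mdm2 and Cdkn1a, 4 were positive with a median of -0.14, where 48% of all tested genes were positive. At an unadjusted p under 0.05, 1 of the 12 was lower, where 8.34% of all tested genes were.

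The Diamond-Blackfan genes numbered 20, with 17 positive, a median log2 fold change of 0.21 and 0 at an unadjusted p under 0.05. Without wild type replicate 2, 9 of the 20 were positive and the median was -0.02. Rps19, the most often mutated of them, measured 92.96, 46.4 and 89.2 CPM in the wild type libraries and 108, 91.2 and 106 CPM in the Lama4-/- libraries. Lama4-/- replicate 2 lay below wild type replicate 1, so the groups overlapped, and the log2 fold change was 0.41 (SE 0.29, adjusted p = 0.613). Rps7 measured 10.02, 7.19 and 8.72 CPM in the wild type libraries and 14.6, 10.98 and 14.2 CPM in the Lama4-/- libraries without overlap, a log2 fold change of 0.62. Rpl31 also did not overlap, at 4.56, 4.62 and 3.24 CPM in the wild type libraries and 5.52, 7.52 and 12.6 CPM in the Lama4-/- libraries. Its edgeR log2 fold change was 1.04 (SE 0.59, adjusted p = 0.515). Rpl31 shares 420 exonic bases with Tbc1d8 on the opposite strand, so its counts may not all be its own. Rps10 had few counts, at 1.79, 1.03 and 1.16 CPM in the wild type libraries and 4.38, 1.35 and 2.69 CPM in the Lama4-/- libraries, and its log2 fold change of 1.07 had an SE of 0.93. Rps24 measured 38.6, 16.6 and 39.9 CPM in the wild type libraries and 29.6, 32.4 and 49.01 CPM in the Lama4-/- libraries, and Rps26 38.96, 13.4 and 30.6 CPM in the wild type libraries and 30.6, 28.1 and 35.1 CPM in the Lama4-/- libraries. In both the genotypes overlapped, and the log2 fold changes were 0.22 and 0.17. Rpl15 measured 32.8, 23.3 and 34.3 CPM in the wild type libraries and 27.4, 38.9 and 32.6 CPM in the Lama4-/- libraries. Rpl18 measured 32.2, 25.3 and 41.7 CPM in the wild type libraries and 42.6, 41.4 and 36.1 CPM in the Lama4-/- libraries. Rpl27 measured 15.6, 8.56 and 11.7 CPM in the wild type libraries and 21.8, 12.9 and 18.4 CPM in the Lama4-/- libraries. The genotypes overlapped in all 3 of these proteins of the large subunit. Rpl35 measured 16.8, 7.02 and 11.5 CPM in the wild type libraries and 15.4, 10.8 and 16.6 CPM in the Lama4-/- libraries. Rps15a measured 53.7, 18.3 and 44.7 CPM in the wild type libraries and 45.4, 32.04 and 48.5 CPM in the Lama4-/- libraries. Rps20 measured 60.5, 30.7 and 45.98 CPM in the wild type libraries and 69.6, 37.004 and 50.5 CPM in the Lama4-/- libraries. In each of these wild type replicate 2 was the lowest library. Rps27 measured 5.76, 3.08 and 5.401 CPM in the wild type libraries and 8.52, 4.89 and 9.004 CPM in the Lama4-/- libraries, Rps28 21.99, 7.88 and 22.5 CPM in the wild type libraries and 19.2, 13.99 and 15.6 CPM in the Lama4-/- libraries, and Rps29 5.31, 2.57 and 4.398 CPM in the wild type libraries and 4.44, 4.89 and 4.502 CPM in the Lama4-/- libraries. Rps28 was negative, at -0.11, and the other two positive, at 0.65 and 0.17.

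The genes listed for the mRNA channel and the decoding site held both signs, with 3 of 6 positive and a median of 0.091, or -0.16 without wild type replicate 2. This list counts Rps12 (-0.68), a protein of the small subunit that lies outside the decoding site. Rps3, which guards the mRNA entry, measured 446, 241 and 343 CPM in the wild type libraries and 491, 422 and 491 CPM in the Lama4-/- libraries. Rps9 measured 132, 72.4 and 129 CPM in the wild type libraries and 157, 128 and 148 CPM in the Lama4-/- libraries. Rps15 measured 97.1, 42.8 and 76.4 CPM in the wild type libraries and 83.4, 72.8 and 91.8 CPM in the Lama4-/- libraries. The genotypes overlapped in each of these 3 well counted genes, and the log2 fold changes were 0.45, 0.38 and 0.19. Rps23, which touches the decoding centre, measured 4.41, 2.57 and 5.401 CPM in the wild type libraries and 4.98, 4.36 and 2.98 CPM in the Lama4-/- libraries, a log2 fold change of -0.011. Of the genes lining the exit tunnel or its mouth 6 of 7 were positive, beside 82.6% of all tested members, with a median of 0.54. That median was 0.39 without wild type replicate 2, and 0.26 with the length trend removed, where 5 of 7 were positive. Rpl39 measured 28.7, 13.5 and 21.4 CPM in the wild type libraries and 32.5, 27.5 and 23.7 CPM in the Lama4-/- libraries, Rpl17 2.32, 0.856 and 0.926 CPM in the wild type libraries and 4.62, 1.504 and 2.54 CPM in the Lama4-/- libraries, and Rpl23a 0.449, 0.342 and 0.849 CPM in the wild type libraries and 1.26, 0.827 and 1.02 CPM in the Lama4-/- libraries. Rpl17 and Rpl23a stood at a few CPM or less, with log2 fold changes of 1.07 (SE 0.97) and 0.89 (SE 1.005). Rpl24, a protein of the bridge between the subunits, was as low at 0.748, 0.856 and 0.772 CPM in the wild type libraries and 2.46, 0.752 and 1.89 CPM in the Lama4-/- libraries.

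Rps6, the protein that the S6 kinases downstream of mTOR phosphorylate, measured 5.01, 5.14 and 6.33 CPM in the wild type libraries and 7.68, 6.39 and 7.697 CPM in the Lama4-/- libraries. Its genotypes did not overlap, and the log2 fold change was 0.40 (SE 0.52, adjusted p = 0.808). Rpl3, which reaches into the peptidyl transferase centre, did not overlap either, at 39.6, 32.7 and 39.2 CPM in the wild type libraries and 59.2, 40.7 and 43.7 CPM in the Lama4-/- libraries, a log2 fold change of 0.36 (SE 0.25, adjusted p = 0.609). Rps27a, made as a fusion with ubiquitin, measured 9.72, 5.65 and 9.104 CPM in the wild type libraries and 10.5, 9.25 and 16.4 CPM in the Lama4-/- libraries. Rpl41, the shortest of the ribosome's proteins, measured 97.4, 38.7 and 95.7 CPM in the wild type libraries and 93.7, 64.7 and 103 CPM in the Lama4-/- libraries. The genotypes overlapped in Rps27a and Rpl41, with log2 fold changes of 0.56 and 0.17.

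The paralogs and retrocopies were all positive, 9 of 9 tested, with a median log2 fold change of 0.41, or 0.11 and 5 of 9 with the length trend removed. Without wild type replicate 2, 6 of 10 tested were positive with a median of 0.15, and with each of the other libraries left out the median ran from 0.23 to 0.77. Rps27l, a p53 target that replaces RPS27 in part of the ribosomes, was counted far above its parent, at 114, 42.5 and 93.7 CPM in the wild type libraries and 138, 96.8 and 97.8 CPM in the Lama4-/- libraries, and at 195 CPM per kb against 17.7 for Rps27. The same comparison is limited by Rps27's 1.48% of unique windows against 88.0% for Rps27l. Rpl22 measured 62.1, 34.2 and 53.2 CPM in the wild type libraries and 50.8, 53.3 and 42.4 CPM in the Lama4-/- libraries, a log2 fold change of -0.033, against 0.66 for its paralog Rpl22l1. That pair's difference was not tested. Rpl36al, at 12.9, 3.94 and 12.3 against 14.3, 11.7 and 17.6 CPM, was counted above its X-linked parent Rpl36a, at 1.79, 1.71 and 3.47 against 5.22, 4.81 and 2.32 CPM. This pair has the same limit, with 38.7% unique windows for Rpl36al and 15.4% for Rpl36a. Rpl39l, known from the testis, measured 15.6, 5.99 and 9.95 CPM in the wild type libraries and 16.3, 10.5 and 11.04 CPM in the Lama4-/- libraries. Rpl10 measured 13.2, 11.1 and 12.6 CPM in the wild type libraries and 14.04, 8.05 and 27.1 CPM in the Lama4-/- libraries, with Lama4-/- replicate 3 highest. Rps27rt, whose coding sequence is that of Rps27, measured 2.09, 0.856 and 0.926 CPM in the wild type libraries and 2.16, 1.05 and 1.23 CPM in the Lama4-/- libraries.

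Rpl3l, which replaces RPL3 in skeletal and heart muscle, had 22 counts in Lama4-/- replicate 1, 32 in replicate 3, and 0 in replicate 2 and in the 3 wild type libraries. Against a floor of 3 counts over the wild type group, the Lama4-/- group was at least 13.2-fold higher, and 1 of its 3 libraries was itself at 0. DESeq2 gave Rpl3l an adjusted p of 0.286, and its unadjusted DESeq2 p in the authors' deposited table was 0.253. All of Rpl3l's windows are unique. Muscle genes chosen after these values were seen (8 of 10 in the table, among them Acta1 and Mylpf) summed to 9.42 to 12.3 CPM for wild type and 9.12 to 13.5 CPM for Lama4-/-, with the highest sum in Lama4-/- replicate 2, where Rpl3l was 0.

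Within the ribosomal protein pool, that is with each member as a percentage of its library's member counts, the shared shift drops out. All Lama4-/- libraries were then above all wild type libraries for 4 of 88 members (4.55%), Rpl7, Rpl13, Rpl19 and Rpl32l, and below for 8 (9.09%), Rpl8, Rpl9, Rpl22, Rpl30, Rpl35a, Rpl38, Rps2 and Rps12. All tested genes on the same scale gave 1.77% above and 18.1% below, against 10.3% and 12% as CPM. The summed member counts took a smaller mean share in wild type, so dividing by them raises other genes there. The percentages of the members and of all genes on this scale are therefore not a like comparison. The log2 ratio of the mean pool shares was -1.23 for Rps2, -1.23 for Rpl35a and -1.15 for Rpl9. At the other end it was 0.73 for Rpl17, 0.67 for Rps10 and 0.58 for Rpl24. Rplp0 made up 8.70%, 12.4% and 9.49% of the pool in wild type and 11.6%, 11.9% and 13.04% in Lama4-/-, so wild type replicate 2 was not low for it on this scale and the genotypes overlapped.

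Other genes of ribosome production, in lists taken from background knowledge, were read in the same fit, in which 4.45% of all genes were higher and 8.34% lower at an unadjusted p under 0.05. Other TOP mRNAs of translation, such as Eef1a1 and Tpt1, were positive in 12 of 20, with a median of 0.23, or 0.061 without wild type replicate 2, and 2 higher at an unadjusted p under 0.05. Ribosome assembly factors were positive in 25 of 51 with a median of -0.03 (-0.03 to 0.07 with a library left out), and 3 were higher and 2 lower at that threshold. RNA polymerase I and its factors, which make the ribosomal RNA, were positive in 4 of 14 with a median of -0.10, and 1 was higher at that threshold. With a library left out that median ran from -0.27 to 0.24, positive without wild type replicate 3 or Lama4-/- replicate 1. Translation initiation factors were positive in 20 of 29 with a median of 0.22, and 4 were higher and 3 lower. Regulators of these mRNAs, among them Mtor, Larp1 and Myc, were positive in 6 of 20 with a median of -0.36. At the same threshold 1 regulator was higher and 3 were lower. Their median ran from -0.41 to -0.25 with a library left out. It changed sign in the fit corrected for transcript length, to 0.071, with 11 of 20 positive. In that fit 4 regulators passed the unadjusted threshold as higher (4.95% of all genes) and 1 as lower (3.16%). No gene of these lists passed the adjusted threshold in edgeR or limma voom, and DESeq2 put 4 initiation factors and 3 regulators under it, where 4.39% of all genes with an adjusted p were. The 185 ribosomal protein pseudogenes named "-ps" took 0.0415% to 0.105% of counts, lowest in wild type replicate 2. The 47 of them that passed the filter had a median of 0.25, close to the members' 0.27, and with the length trend removed a median of -0.04.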

How the data were processed

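Gene expression was measured in 6 libraries, 3 wild type and 3 Lama4-/-, grouped by the genotype label. Per the submitters' processing notes the reads were handled with FastQC 0.11.8, MultiQC 1.7, STAR 2.6.1d, featureCounts and DESeq2 on GRCm38/mm10. Their settings, which decide how a read that fits several gene copies was counted, are not given in the sources used. In the authors' single table the headings of 2 blocks are exchanged: all cells under the normalized heading are whole numbers and served as the deposited counts, and under the raw heading stands a deposited signal, the same counts times 1 constant per library, which was not tested. The authors' shrunken log2 fold changes and their p-values with adjusted p-values come from DESeq2, per the file headers.

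Counts were filtered with filterByExpr, scaled with TMM and tested with the robust quasi-likelihood test of edgeR 4.0.16 (R 4.3.3), with p-values adjusted by Benjamini-Hochberg over the 14465 genes tested and a threshold of 0.05. Alternatives were other scalings and filters, DESeq2 1.42.0, limma 3.58.1 voom with quality weights, a replicate block, each library left out, dominant genes left out, and a lowess curve (span 0.3) on the length of each gene's longest transcript as an offset. DESeq2 was run with its default filtering, and a filtering target of 0.05 was added after its result had been seen. Tests were checked on simulated data: for Lama4-/- against wild type, 62 of 200 genes changed 4-fold were recovered over 13605 genes with 1 false call, and 126 of 200 changed 16-fold over 13592 genes with 6. Changes smaller than 4-fold were not simulated. Within a genotype, every pair of libraries differed beyond sampling noise, with a chi-square per gene of at least 42.6. Members were matched to GENCODE M21, and levels per kb and window searches used 1 coding transcript per gene. Proteins of the paralogs were not compared here.

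Values of a few genes are not reported here. The members, role lists and gene lists were chosen with earlier results of these data known. Values in every library are given for the members of the role lists, the 6 smallest p in each direction, the 3 highest and lowest per kb, and the 3 largest movements each way within the pool. Muscle genes and single values outside this rule were chosen after the values were seen.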

Additional observations from a re-analysis of the deposited data

How the results depend on the processing

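Over all tested genes 1 passed the adjusted threshold, and 0 did with upper-quartile scaling, limma voom, the replicate block or the length trend removed. Without a filter 12 passed, with DESeq2 722 and with its filtering at 0.05, 741. Leaving out 1 library gave 0 to 1. Among the ribosomal protein genes 0 passed, and 1 (Rplp0) under both DESeq2 settings. The count with an unadjusted p under 0.05 was 3, 6 with the block (5 higher and Rps2 lower), 0 with the length trend removed, and 1 to 6 with a library left out. Genotypes that did not overlap numbered 9, 19 with upper-quartile scaling (13.4% of all genes), 2 with the length trend removed, and 9 to 35 with a library left out. Positive members numbered 71, and 43, with a median of -0.0042, once the length trend was removed. With a library left out they numbered 48 to 80, with medians of 0.058 to 0.52. The difference in share of counts was 0.054 to 0.192 percentage points. The cause was not tested for these shifts.

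Replicate numbers are shared between genotypes, but the labels do not say that they pair mice. The correlation of deviations was 0.040, 0.132 and 0.054 for equal numbers and -0.076 to 0.007 for unequal ones, so every library went best with its own number, a hint from the data and not from the design. As a replicate block they gave 78 positive members.

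Signs of 22 named members changed under some setting, at adjusted p-values far from the threshold. With the length trend removed the log2 fold changes were -0.11 for Rpl15, -0.11 for Rpl26, -0.0401 for Rpl35, -0.053 for Rpl39l, -0.14 for Rpl41, -0.18 for Rplp1, -0.031 for Rplp2, -0.11 for Rps15, -0.13 for Rps26, -0.097 for Rps27rt and -0.12 for Rps29. Upper-quartile scaling gave 0.065 for Rpl22, 0.085 for Rps23, 0.028 for Rps4x and 0.069 for Rpsa. The replicate block gave 0.00042 for Rpl22, 0.025 for Rps23, 0.021 for Rps28, 0.053 for Rps4x and 0.020 for Rpsa, and limma voom -0.0038 for Rps15a. With a library left out the ranges were -0.16 to 0.73 for Rpl10, -1.18 to 0.33 for Rpl11, -0.024 to 0.25 for Rpl15, -0.24 to 0.17 for Rpl22, -0.50 to 0.35 for Rpl23, -0.14 to 0.51 for Rpl26, -0.014 to 0.67 for Rpl39l, -0.15 to 0.38 for Rpl41, -0.18 to 0.41 for Rplp1, -0.070 to 0.48 for Rps15, -0.23 to 0.42 for Rps15a, -0.057 to 0.46 for Rps20, -0.25 to 0.23 for Rps23, -0.085 to 0.42 for Rps24, -0.16 to 0.51 for Rps26, -0.18 to 0.74 for Rps27rt, -0.45 to 0.12 for Rps28, -0.074 to 0.41 for Rps29, -0.39 to 0.32 for Rps4x and -0.23 to 0.26 for Rpsa.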
